A study of Sus scrofa with 12 samples.

Results

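The genes described here are those of cholesterol synthesis and of its control by SREBP2, 27 genes chosen by symbol, of which 26 were found among the 21368 genes of the peak table and the gene expression table. LSS was found in neither table and is not analysed here. The peak table held 58 peaks on 24 of these genes, out of 25055 peaks in all, and MVK and STARD4 had an expression value but no peak. Of the 58 peaks, 44 lay under 1 gene and 14 under several. FDPS, whose 5 peaks are all shared with RUSC1, and TM7SF2, whose only peak spans 54377 bp and 7 genes, had no peak of their own, so 22 genes could be summed over peaks of their own. The symbol PMVK was taken from the deposited table, because the reference table pairs that symbol with another identifier, and MBTPS2 was named by the deposited table alone.

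The samples were IPEC-J2 cells, a pig line of small intestinal epithelium, labelled wild type, kept in medium with serum and given 25 µM OAA (the OAA cells) or 0 µM OAA (the CON cells) for 24 h. The labels do not spell OAA out, and they give 3 numbered replicates per treatment without saying whether these were separate cultures, so the p-values below measure only how far these samples scatter, which may be technical scatter. All 12 libraries carry the same batch label. Fragmented RNA of each replicate was divided, 1 part serving as input and the other being bound by an antibody to N6-methyladenosine (m6A), a methyl mark on adenosines of mRNA, which gave 4 groups of 3 libraries: OAA labelled input, CON labelled input, OAA labelled IP and CON labelled IP.

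Cells build cholesterol from acetyl-CoA in a chain of steps: acetyl units are joined to mevalonate, mevalonate is turned into isoprenoids, isoprenoids are joined to squalene, squalene is closed to lanosterol, and lanosterol is trimmed to cholesterol. The chain is controlled through its product. When sterols in the endoplasmic reticulum are low, SCAP carries the precursor of the transcription factor SREBP2 to the Golgi, where the proteases MBTPS1 and MBTPS2 release its active part, and INSIG proteins hold SCAP back when sterols are plentiful. SREBP2 raises the mRNAs of most enzymes of the chain together, and in the small intestine this supply adds to the cholesterol absorbed from food.

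The labels and the read numbers seem to disagree about which libraries were bound by the antibody. Libraries labelled input held 16.5 to 23.0 M reads in peaks, and those labelled IP held 3.71 to 4.61 M. Of 24931 peaks with a count, 98.4% held the larger read number in labelled input, as did 55 of the 57 peaks with a count on the genes described here. The authors' deposited log2 ratios run labelled input over labelled IP, with medians over all peaks of 4.04 in OAA and 3.97 in CON cells. The same direction is used here. If the labels hold, a ratio above 0 is less antibody-bound RNA than at the typical peak, and if the labels are swapped it is more. The comparison of OAA with CON cells within a label has a set sign, but whether it speaks of total RNA or of bound RNA depends on the same point. By the library codes in their column names, the gene expression values belong to the labelled-IP libraries. Of the cell type markers found, 5 of 6 epithelial genes averaged at least 1 FPKM, KRT8, CLDN4, EPCAM, CDH1 and KRT18 with 73.3 to 396 FPKM, and VIL1, a microvillus gene, averaged 0.246 FPKM. Of 3 enterocyte genes, SI averaged 12.8 FPKM, APOA1 4.56 FPKM and FABP2 0.00267 FPKM. Of 3 goblet cell genes, FCGBP averaged 2.98 FPKM, and MUC2 and TFF3 were at 0. Both endothelial genes were above 1 FPKM, CDH5 with 3.78 and PECAM1 with 1.44 FPKM. None of 4 fibroblast, 3 leukocyte, 2 enteroendocrine, 2 hepatocyte and 2 adipocyte genes averaged 1 FPKM, the highest being CD14 of leukocytes with 0.682 FPKM, and DCN, PTPRC and TTR were at 0. Summed over 6 epithelial markers the level was 946 to 1065 FPKM in OAA cells and 1021 to 1113 FPKM in CON cells.

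Most genes of the pathway had FPKM values above the typical gene. FPKM are fragments scaled by transcript length and by depth, so that levels of different genes can be set side by side. If the labels hold, these are levels of antibody-bound RNA, and their order then joins the amount of an mRNA with its m6A. The 26 genes had a median of 21.9 FPKM, against 11.2 FPKM over the 10763 genes tested, and 20 of the 26 lay above that median. FDPS, which makes farnesyl diphosphate, was highest at 177 FPKM on average over the 6 libraries. CYP51A1, the lanosterol demethylase, followed with 105 FPKM, and ACAT2, the thiolase that joins acetyl-CoA units, with 98.8 FPKM. A middle group from SC5D with 55.8 FPKM to EBP with 33.6 FPKM held SQLE, MBTPS1, MSMO1, FDFT1, IDI1, HMGCS1 and SREBF2. Of the 25 steps from one gene to the next in this order, 18 had overlapping ranges over the 6 libraries. The 7 clear steps fell below FDPS, ACAT2, MBTPS1, EBP, SCAP, MVK and INSIG2. TMEM97, INSIG1, MVD, LBR, HSD17B7, MBTPS2, SCAP, DHCR7 and MVK lay between 22.4 and 10.2 FPKM. The lowest were TM7SF2 with 5.62 FPKM, NSDHL with 5.09, STARD4 with 3.94, INSIG2 with 3.67 and PMVK with 1.68. The 2 enzymes that can reduce the sterol C14 double bond thus stood at 19.3 FPKM for LBR and 5.62 FPKM for TM7SF2, and the 2 INSIG genes at 21.3 and 3.67 FPKM.

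**Figure D1:**
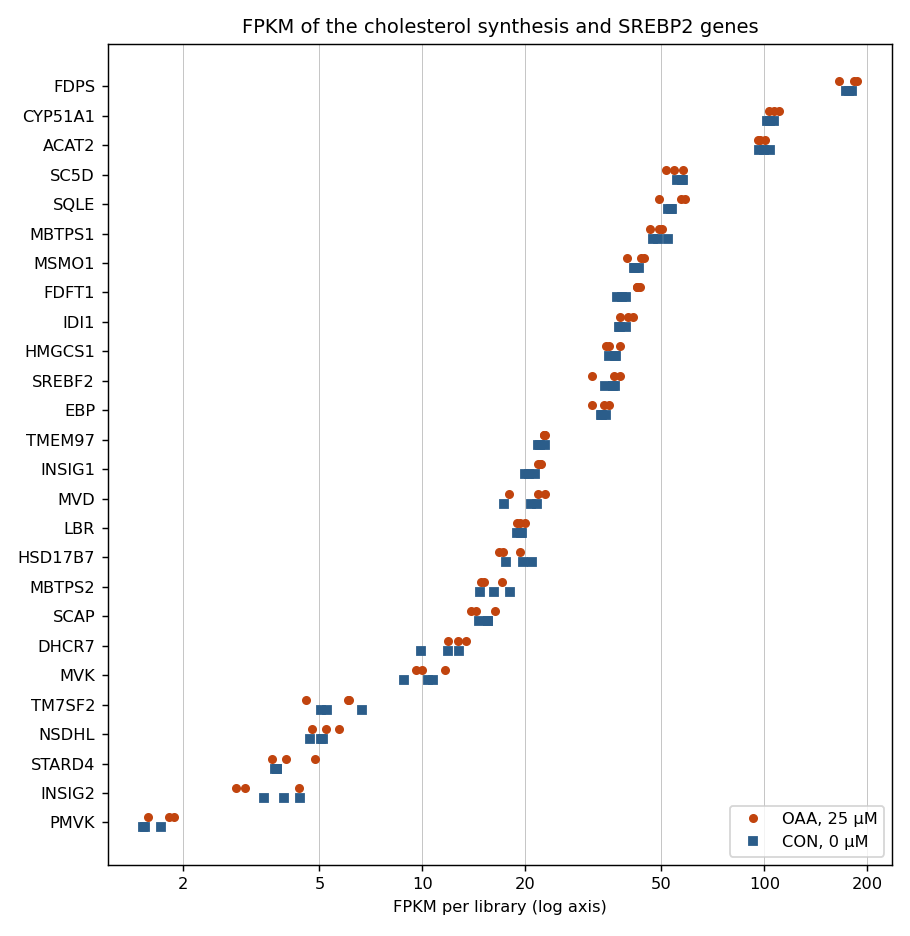
FPKM of the 26 genes in each library on a log axis, with the 3 OAA libraries as circles above the 3 CON libraries as squares, ordered by the mean. Levels span from 1.68 FPKM for PMVK to 177 FPKM for FDPS. Of the 26 genes only FDFT1 and INSIG1 show OAA and CON libraries that do not overlap, against 8.55% of all genes tested.

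The question of the design is what OAA does to these genes, and in the FPKM values no gene of the pathway changed past the test. The 26 genes together took 0.198%, 0.201% and 0.201% of all FPKM in the OAA libraries and 0.198%, 0.200% and 0.203% in the CON libraries. The median log2 difference, OAA over CON on the scale of log2(FPKM + 1), was 0.01 for the 26 genes and -0.01 for all genes tested. By limma with Benjamini-Hochberg adjustment 0 of 26 were called at an adjusted p under 0.05, against a background of 0% of 10763 genes. At an unadjusted p under 0.05 there was 1 of 26, against 3.31% of all genes, and 15 of 26 lay above 0, against 43% of all genes. The libraries of the treatments did not overlap for 2 of 26, or 7.69%, against 8.55% of all genes. Since these are bulk samples, fewer cells of a type and less RNA per cell cannot be told apart.

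FDFT1, squalene synthase, which makes the first step committed to sterols, had the smallest p. It stood at 42.3, 42.5 and 43.4 FPKM in OAA cells, against 37.0, 38.4 and 39.5 FPKM in CON cells. Every OAA library lay above every CON library, by 0.16 ± 0.05 on the log2 scale (SE, 95% interval 0.04 to 0.27). Its unadjusted p of 0.0133 became 1.00 after Benjamini-Hochberg adjustment in limma. INSIG1, the sterol-sensing anchor of SCAP and itself a gene raised by SREBP2, had 22.1, 21.7 and 22.2 FPKM in OAA cells, against 20.5, 19.9 and 21.4 FPKM in CON cells. The groups did not overlap, and the log2 difference of 0.09 had a 95% interval of -0.04 to 0.22.

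The other genes that report on SREBP2 activity overlapped between the treatments. HMGCS1, which makes HMG-CoA, had 34.4, 35.1 and 37.7 FPKM in OAA cells, against 36.9, 35.0 and 36.5 FPKM in CON cells. SQLE, the squalene epoxidase and a rate-limiting step, had 49.2, 57.1 and 58.7 FPKM in OAA cells, against 52.3, 53.6 and 53.4 FPKM in CON cells. SREBF2, which encodes SREBP2, had 36.2, 37.7 and 31.3 FPKM in OAA cells, against 34.1, 36.5 and 36.2 FPKM in CON cells. For each of these 3 the OAA libraries spread wider than the CON libraries, and the log2 differences were -0.02, 0.04 and -0.02. DHCR7, the last reductase of one route to cholesterol, had 13.4, 12.7 and 11.9 FPKM in OAA cells, against 9.90, 11.9 and 12.8 FPKM in CON cells. HSD17B7, a ketoreductase of C4 demethylation, had 16.7, 19.2 and 17.2 FPKM in OAA cells, against 17.6, 19.7 and 20.9 FPKM in CON cells. Both ranges overlap, at log2 differences of 0.13 and -0.12.

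By role, 5 of 7 mevalonate and isoprenoid genes, both squalene genes, 5 of 9 genes of sterol conversion, 1 of 6 genes of sensing and SREBP2 activation and both genes of sterol transport had a log2 FPKM difference above 0, and in none of these groups did a gene pass the test. The role medians ran from -0.03 for sensing and activation to 0.10 for the squalene genes. Over the 26 genes the single log2 differences ran from -0.17 for INSIG2, a homolog of INSIG1, to 0.16 for FDFT1. The 95% intervals extended a median of 0.14 to each side, and up to 0.30 for the low genes, which is the precision these 6 libraries give.

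**Figure D2:**
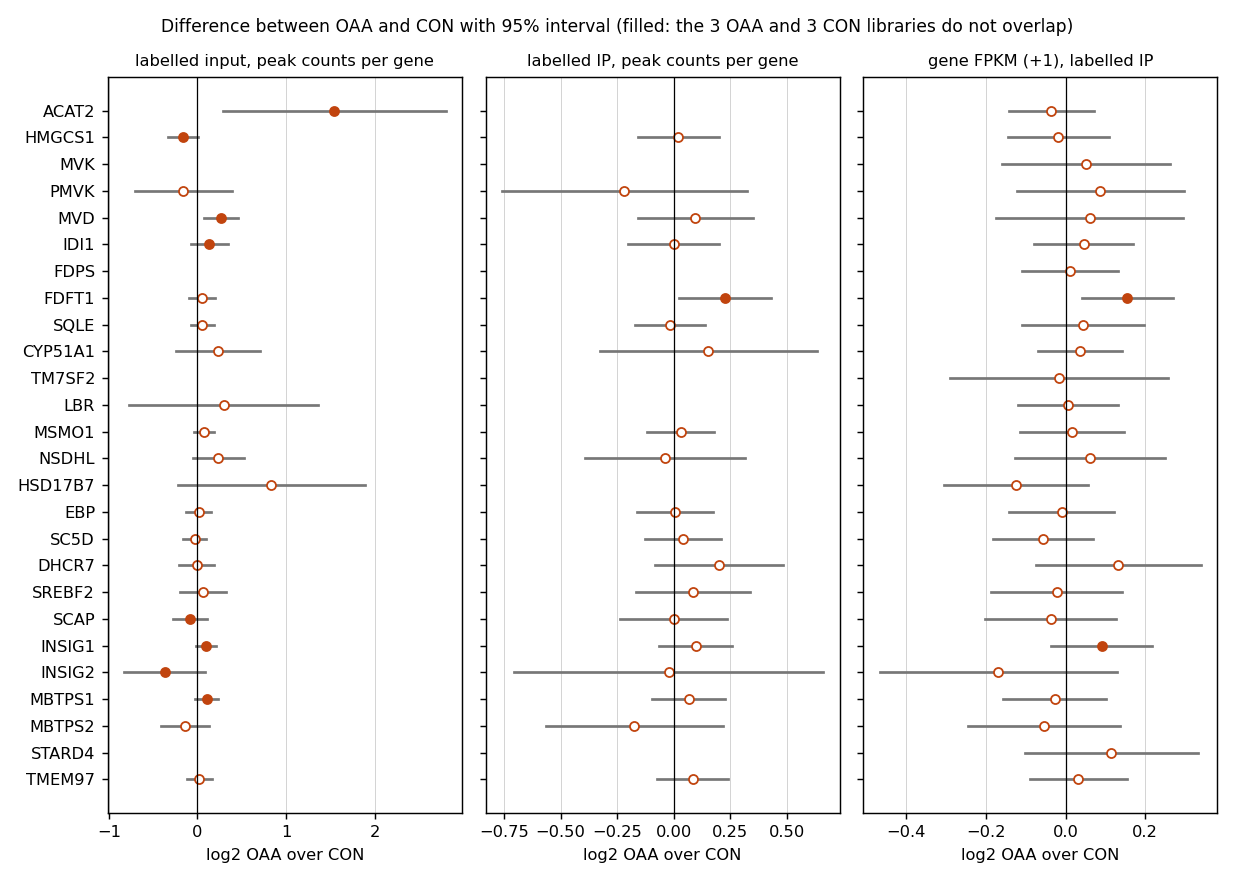
Log2 difference, OAA over CON, for each gene with its 95% interval, in the labelled-input peak counts (left), the labelled-IP peak counts (middle) and the FPKM values (right), each panel with its own axis range and filled circles where the 3 OAA and 3 CON libraries do not overlap. Filled circles number 8 of 22, 1 of 19 and 2 of 26, against 11.4%, 9.77% and 8.55% of all genes tested. FDFT1 is filled in the middle and right panels, which come from the same libraries. ACAT2, filled on the left, passed the filter on low counts only through its OAA libraries.

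The reads of the libraries labelled input, summed per gene over peaks of its own, also gave no call. Counts were tested with edgeR's quasi-likelihood test, and levels are given as CPM, reads per 1e+06 reads in peaks after scaling. After Benjamini-Hochberg adjustment 0 of 22 genes were called, against a background of 0% of 9298 genes, and DESeq2 called 0 of 22 as well. Unadjusted, 2 of 22 had p under 0.05, or 9.09%, against 4.87% of all genes. The median log2 difference was 0.06, against -0.00 over all genes. Of the 22, 15 lay above 0, or 68.2%, against 48.8% of all genes, and leaving out 1 replicate number of a treatment at a time gave 14 to 17. The OAA and CON libraries did not overlap for 8 of 22 genes, or 36.4%, against 11.4% of all genes. These 8 went both ways. ACAT2, MVD, IDI1, INSIG1 and MBTPS1 had all 3 OAA libraries above the CON libraries (5 of 22, against 5.49% of all genes), and HMGCS1, SCAP and INSIG2 had all 3 below (3 of 22, against 5.94%). The 2 genes with p under 0.05 were MVD and ACAT2. ACAT2 passed the filter on low counts only through its OAA libraries, where it is high. Its place in the counts of small p, of values above 0 and of groups that do not overlap is therefore not a result.

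MVD, which decarboxylates mevalonate diphosphate to the first isoprenoid, had the smallest p. It had 59.2, 56.2 and 58.4 CPM in OAA cells, against 45.1, 49.1 and 50.05 CPM in CON cells. The difference was 0.27 ± 0.09 on the log2 scale (SE, 95% interval 0.08 to 0.46), with an unadjusted p of 0.00881 and an adjusted p of 0.929 in edgeR. With any 1 library left out it lay between 0.23 and 0.30. In FPKM the same gene had 22.8, 21.8 and 17.9 in OAA cells, against 17.3, 21.6 and 20.8 in CON cells, which overlap.

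ACAT2 had the largest difference, 1.54 ± 0.59 on the log2 scale, from very few reads. Its only peak of its own, at the start codon, held 22, 11 and 25 reads in the OAA libraries labelled input, against 8, 4 and 8 reads in the CON libraries. All 3 OAA counts exceed the CON counts, with an unadjusted p of 0.0189 and an adjusted p of 0.929 in edgeR. The gene passed the filter on low counts only through these OAA libraries, so neither its p nor the separation can serve as support for a difference. The peak at its stop codon is shared with the neighbouring gene TCP1. That peak held 598, 529 and 645 reads in OAA cells, against 628, 421 and 610 reads in CON cells. With peaks under several genes counted for each of them, an alternative chosen after seeing the data, the log2 difference of ACAT2 was 0.09 ± 0.11.

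HMGCS1 went the other way from MVD and INSIG1. It had 70.6, 76.2 and 77.1 CPM in OAA cells, against 80.2, 83.4 and 87.6 CPM in CON cells, a log2 difference of -0.17 ± 0.08 (SE) with an unadjusted p of 0.0531 and an adjusted p of 0.929 in edgeR. INSIG1 had 438, 452 and 415 CPM in OAA cells, against 398, 407 and 413 CPM in CON cells, a difference of 0.10 ± 0.05. The lowest OAA library of INSIG1 lay just above its highest CON library. Reads of SQLE came to 239, 261 and 264 CPM in OAA cells, against 234, 249 and 253 CPM in CON cells. For SREBF2 they came to 28.9, 27.2 and 28.8 CPM in OAA cells, against 26.1, 24.2 and 30.6 CPM in CON cells. FDFT1 had 192, 201 and 175 CPM in OAA cells, against 179.9, 173 and 194 CPM in CON cells. These 3 overlapped between the treatments, with log2 differences of 0.06, 0.06 and 0.05. The 95% intervals of the 22 genes extended a median of 0.19 to each side.

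In the libraries labelled IP, 19 genes could be tested per gene, since ACAT2, HSD17B7 and LBR fell below the filter on low counts there. None was called by edgeR after Benjamini-Hochberg adjustment (0 of 19, background 0% of 8138 genes), and DESeq2 called 0 of 19 too. FDFT1 was the only one with an unadjusted p under 0.05 (1 of 19, against 3.65% of all genes) and the only one whose libraries did not overlap (against 9.77%). It had 126, 123 and 126 CPM in OAA cells, against 95.7, 117 and 108 CPM in CON cells. The difference was 0.23 ± 0.10 on the log2 scale, with p 0.0321 before and 1.00 after adjustment in edgeR. With the peaks shared with CTSB counted as well, an alternative chosen after seeing the data, it was 0.04 ± 0.05. These are the libraries behind the FPKM values, so the same direction in FPKM is not a second observation. In the libraries labelled input the log2 difference of FDFT1 was 0.05 ± 0.07.

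The next smallest p-values belonged to genes that overlapped between the treatments. DHCR7 had 52.6, 46.1 and 58.8 CPM in OAA cells, against 41.7, 46.4 and 49.1 CPM in CON cells. INSIG1 had 224, 217 and 243 CPM in OAA cells, against 220.2, 204 and 216 CPM in CON cells. TMEM97, a sterol-binding membrane protein also known as the sigma-2 receptor, had 210.4, 211 and 218 CPM in OAA cells, against 195, 197 and 212 CPM in CON cells. For INSIG1 and TMEM97 the overlap came from 1 CON library each. HMGCS1 had 166, 168 and 176 CPM in OAA cells, against 183, 168 and 153 CPM in CON cells. SQLE had 274, 258 and 271 CPM in OAA cells, against 267, 292 and 254 CPM in CON cells. SREBF2 had 85.0, 94.5 and 73.0 CPM in OAA cells, against 71.4, 79.6 and 87.3 CPM in CON cells. None of these 3 set the treatments apart, and the median over the 19 genes was 0.03, against 0.00 over all genes. Of the 19, 12 lay above 0, against 50.8% of all genes.

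The peaks show where on these mRNAs the antibody assay gathered reads. Of the 44 peaks under 1 gene, 15 (34.1%) lay at a stop codon, against 25.2% of the 20827 such mRNA peaks of all genes. A further 11 (25.0%) lay at a start codon, against 22.1%, and 7 (15.9%) in a 3′ UTR, against 18.3%. Coding sequence away from the codons held 6 (13.6%), against 26.2%, and 5′ UTRs held 5 (11.4%), against 7.39%. Counting shared peaks, 17 of the 24 genes with a peak had one at the stop codon, 12 at the start codon and 6 at both. INSIG1 carried 5 peaks of its own, 4 of them in the 3′ UTR, the most of any gene here. Of the 22 genes with a peak of their own, the one with the most reads lay at the stop codon in 11, at the start codon in 7, in coding sequence in 3 and in the 3′ UTR in 1. The median span was 340 bp, against 300 bp over all peaks.

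The log2 ratio of labelled input to labelled IP at a peak was scaled so that the typical peak is at 0. Peaks of the pathway lay on both sides of 0, as did peaks of all genes. All 12 libraries entered one edgeR quasi-likelihood fit with Benjamini-Hochberg adjustment, and 54 of the 58 peaks passed its filter. In OAA cells 32 of 54 peaks were called, 13 higher and 19 lower, against a background of 68.5% of 24145 peaks (34.1% higher, 34.4% lower). In CON cells 36 of 54 were called, 16 higher and 20 lower, against 68.1% of all peaks (33.9% higher, 34.2% lower). The 16 include a shared 5′ UTR peak of SC5D. It passed the filter only through its labelled-input libraries, where it is high, so its call is not a result. Every peak called in OAA cells was also called in CON cells with the same sign. As shares, 59.3% were called in OAA and 66.7% in CON cells, and the medians, -0.00 in OAA and -0.05 in CON cells, stood beside 0.03 for all peaks in each. The zero depends on the scaling: with library-size scaling the median of all peaks moved to -0.24 in OAA and -0.28 in CON cells. The pathway peaks then split into 8 higher and 23 lower in OAA cells, against 27.9% higher and 41.0% lower of all peaks, and into 9 higher and 28 lower in CON cells, against 26.99% and 41.7%. The authors' deposited log2 ratios have another zero. Their medians over 57 pathway peaks were 4.02 in OAA and 3.87 in CON cells, against 4.04 and 3.97 for all peaks. Higher and lower here thus mean relative to the typical peak or gene.

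**Figure D3:**
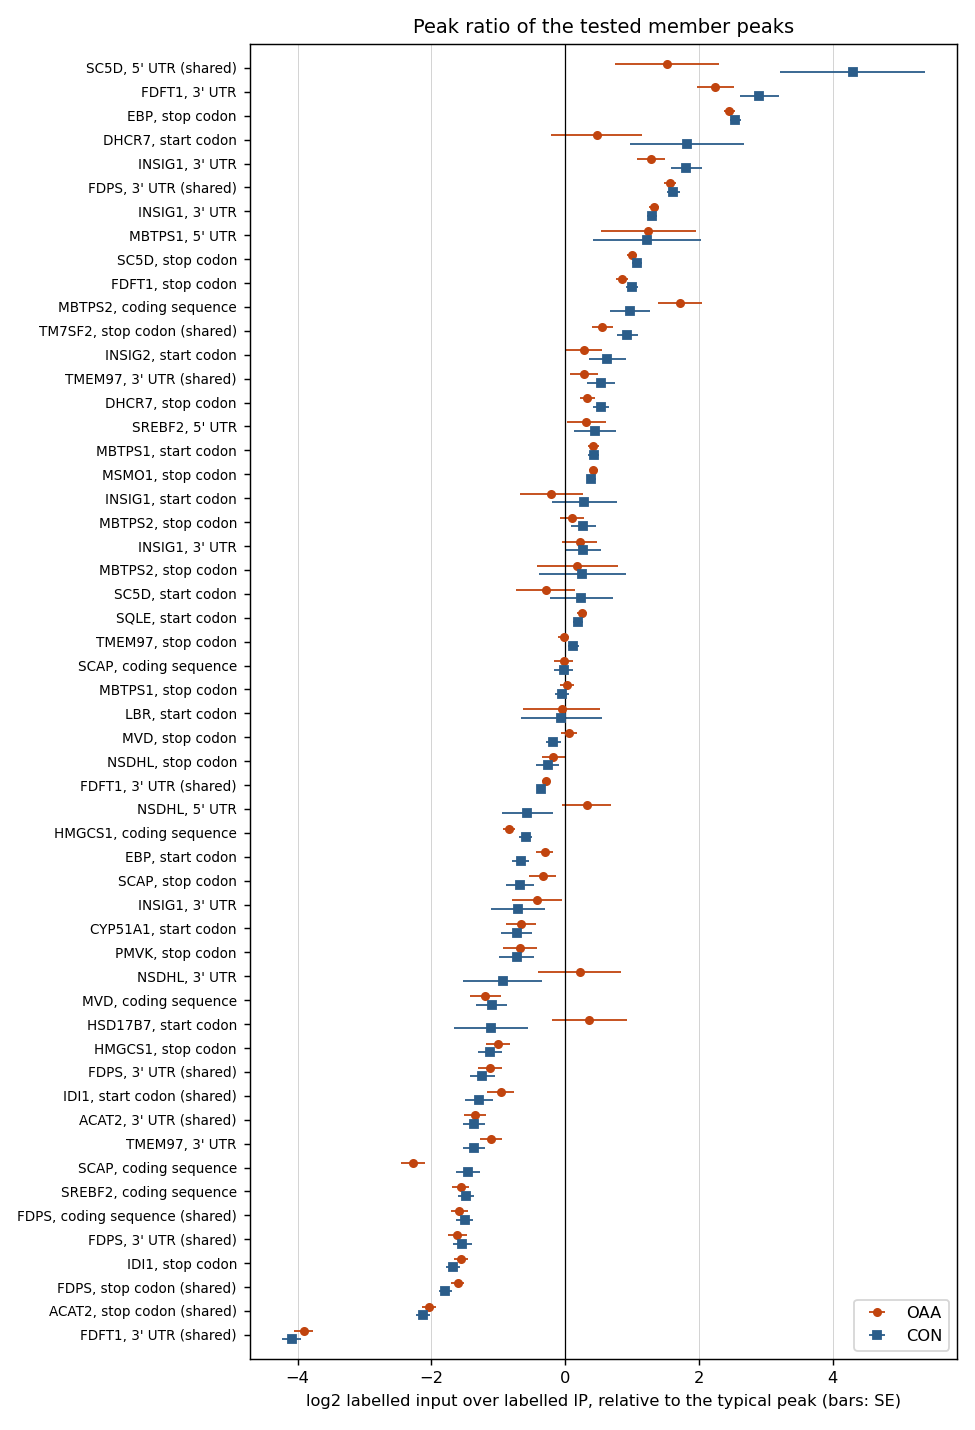
Log2 ratio of labelled input over labelled IP for each of the 54 tested peaks, OAA as circles above CON as squares, with SE bars, ordered by the value in CON cells. Values run from -3.91 in OAA and -4.09 in CON cells for a shared 3′ UTR peak of FDFT1 to 2.46 in OAA and 2.54 in CON cells for the stop codon of EBP and 1.52 in OAA and 4.30 in CON cells for a shared 5′ UTR peak of SC5D that rests on few labelled-IP reads. This SC5D peak passed the filter on low counts only through its labelled-input libraries.

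In the upper part of the chain, all 4 mevalonate and isoprenoid genes with a gene ratio (all peaks of its own summed) were called lower than the typical gene in both treatments. IDI1, the isomerase of isopentenyl diphosphate, had -1.77 ± 0.10 in OAA and -1.91 ± 0.10 in CON cells (SE). HMGCS1 had -1.08 ± 0.08 in OAA and -0.89 ± 0.08 in CON cells. PMVK, the phosphomevalonate kinase, had -0.89 ± 0.26 in OAA and -0.95 ± 0.26 in CON cells, and MVD -0.44 ± 0.11 in OAA and -0.61 ± 0.11 in CON cells. The background of lower calls was 38% of 9097 genes in OAA and 37.8% in CON cells. ACAT2 had too few reads for a gene ratio. The start codon peak, its only one of its own, was not tested in the fit and is given as a linear ratio, not log2. It had 58 reads labelled input and 2 labelled IP in OAA cells, a linear ratio of 7.78 (exact 95% interval 2.06 to 65.7). In CON cells it had 20 and 1, a linear ratio of 4.91 (0.785 to 203). The interval thus lay above 1 in OAA cells but included 1 in CON cells. On the log2 scale, the stop codon peak that ACAT2 shares with TCP1 (chromosome 1, 7600735 to 7600953) stood at -2.03 in OAA and -2.13 in CON cells. FDPS had shared peaks only. Of the 5 FDPS and RUSC1 peaks, 4 were lower, between -1.13 and -1.62 in OAA cells and between -1.24 and -1.79 in CON cells. The fifth, in a 3′ UTR, was higher at 1.57 in OAA and 1.62 in CON cells.

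At the squalene step, FDFT1 was called higher at both peaks of its own. It had a gene ratio of 0.71 ± 0.08 in OAA and 0.88 ± 0.09 in CON cells from its stop codon peak (chromosome 14, 15010032 to 15010456) and a 3′ UTR peak (15011082 to 15011431). The 3′ UTR peak alone stood at 2.25 ± 0.28 in OAA and 2.91 ± 0.29 in CON cells. The other 3 peaks listed for FDFT1, all in a 3′ UTR, are shared with CTSB, which encodes a lysosomal protease, so their reads cannot be assigned to either gene, and 1 of them spans 87613 bp and has no count. A second one (15014207 to 15014381) had the lowest ratio of all peaks here, -3.91 ± 0.14 in OAA and -4.09 ± 0.15 in CON cells. With the shared peaks counted, an alternative chosen after seeing the data, the gene ratio turned to -0.47 in OAA and -0.53 in CON cells. SQLE had a gene ratio of 0.03 ± 0.07 in OAA and -0.04 ± 0.07 in CON cells and was not called. Gene ratios have their own zero, the typical gene, so on the scale of peaks the single SQLE peak, at the start codon, stood at 0.25 ± 0.07 in OAA and 0.19 ± 0.07 in CON cells and was called higher in both.

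Among the enzymes that convert lanosterol to cholesterol the ratios spread widely. EBP, the isomerase that moves the sterol double bond, was highest of the genes here at 1.80 ± 0.07 in OAA and 1.79 ± 0.07 in CON cells. SC5D, the C5 desaturase, had 0.76 ± 0.07 in OAA and 0.84 ± 0.07 in CON cells, and MSMO1, the C4 methyl oxidase, 0.20 ± 0.06 in OAA and 0.17 ± 0.06 in CON cells. CYP51A1 was lower, at -0.88 ± 0.23 in OAA and -0.95 ± 0.24 in CON cells. DHCR7 (0.12 in OAA and 0.33 in CON cells), NSDHL, the C4 decarboxylase (-0.26 in OAA and -0.53 in CON cells), and HSD17B7 (0.14 in OAA and -1.33 in CON cells) were called in CON cells only. The test of the difference was not passed for any of these 3, with unadjusted p of 0.196, 0.246 and 0.0586. The single peak of TM7SF2, shared among 7 genes, stood at 0.56 in OAA and 0.93 in CON cells. LBR had too few reads to place, at -0.27 ± 0.56 in OAA and -0.27 ± 0.60 in CON cells. In all, 5 of 21 genes were called higher and 8 lower in OAA cells, where 76.7% of 9097 genes were called (38.7% higher). In CON cells 6 were called higher and 10 lower, with the same 76.7% of all genes (38.9% higher).

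The sensing machinery also went both ways. SREBF2 was called lower, at -1.47 ± 0.12 in OAA and -1.44 ± 0.12 in CON cells, as was SCAP, the escort of SREBP2, at -0.85 ± 0.10 in OAA and -0.76 ± 0.10 in CON cells. INSIG1 was called higher at 1.04 ± 0.07 in both OAA and CON cells. INSIG2 and the proteases MBTPS1 and MBTPS2 were not called in either as genes. Single peaks of both proteases were called higher in OAA and CON cells, the start codon peak of MBTPS1, with a listed span of 10760 bp, at 0.42 in each and the coding sequence peak of MBTPS2 at 1.72 ± 0.33 in OAA and 0.97 ± 0.30 in CON cells. TMEM97, grouped with sterol transport, was called lower at -0.39 in OAA and -0.33 in CON cells. The 2 INSIG genes thus stood at 1.04 and 0.06 in OAA cells and at 1.04 and 0.41 in CON cells, the second with an SE of 0.27 in each.

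Peaks of one mRNA also differed from each other. Of the 13 genes with at least 2 tested peaks of their own, the gap between the highest and the lowest had a median of 1.29 in OAA and 1.30 in CON cells, and the same peak was highest in both treatments for 11. The gap over all genes was not computed, so whether these are wider than usual is not known. Some rest on few labelled-IP reads, such as the start codon peak of DHCR7 with 5 in CON cells. EBP showed the widest gap, 2.76 in OAA and 3.21 in CON cells. Its stop codon peak (chromosome X, 42678226 to 42678570) had 459.5, 457 and 378 reads per 1e+06 reads in peaks for OAA labelled input and 94.6, 97.2 and 94.0 for OAA labelled IP. In CON cells it had 429, 427 and 438 for labelled input and 92.2, 93.6 and 88.2 for labelled IP. Its start codon peak (42670758 to 42672223) turned the other way, with 28.0, 25.2 and 32.6 for OAA labelled input and 41.7, 43.9 and 42.9 for OAA labelled IP. SREBF2 showed a low peak in its coding sequence, at -1.56 in OAA and -1.48 in CON cells, and a 5′ UTR peak at 0.32 in OAA and 0.45 in CON cells that was not called. This 5′ UTR peak has a listed span of 21538 bp (chromosome 5, 6763108 to 6784645), most of it beyond the listed gene end at 6763156. INSIG1 had its largest peak in the 3′ UTR (chromosome 18, 2886486 to 2887385) at 1.33 in OAA and 1.30 in CON cells, and a smaller one (2892069 to 2892493) at 1.29 in OAA and 1.81 in CON cells. TMEM97 paired a stop codon peak near 0, at -0.02 in OAA and 0.12 in CON cells, with a low 3′ UTR peak at -1.11 in OAA and -1.36 in CON cells.

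The most heavily read peak of a gene did not lie on one side along the chain. It stood at -1.56 in OAA and -1.68 in CON cells for IDI1 (stop codon), -0.84 in OAA and -0.59 in CON cells for HMGCS1 (coding sequence) and -0.67 in OAA and -0.73 in CON cells for PMVK (stop codon). The stop codon peak of MVD lay near 0, at 0.06 in OAA and -0.18 in CON cells, while its coding sequence peak lay at -1.20 in OAA and -1.10 in CON cells. Stop codon peaks of later enzymes lay on the other side, at 1.00 in OAA and 1.07 in CON cells for SC5D, 0.42 in OAA and 0.39 in CON cells for MSMO1 and 0.33 in OAA and 0.53 in CON cells for DHCR7, all called higher in both. The stop codon peak of FDFT1 stood at 0.85 in OAA and 1.00 in CON cells and was also called higher in both. The start codon peak of CYP51A1 was called lower, at -0.66 in OAA and -0.72 in CON cells. The start codon peaks of LBR, at -0.05 in OAA and -0.06 in CON cells, and of HSD17B7, at 0.36 in OAA and -1.10 in CON cells, were not called in either. The start codon peak of INSIG2, at 0.28 in OAA and 0.63 in CON cells, was called in CON cells only, and the test of the change was not passed. The stop codon peaks of NSDHL, at -0.18 in OAA and -0.26 in CON cells, and of MBTPS2, at 0.10 in OAA and 0.27 in CON cells, were not called. DHCR7 also had a start codon peak at 0.47 ± 0.68 in OAA and 1.83 ± 0.85 in CON cells, from 78 labelled-input and 15 labelled-IP reads in OAA cells and 72 and 5 in CON cells, which was not called.

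**Figure D4:**
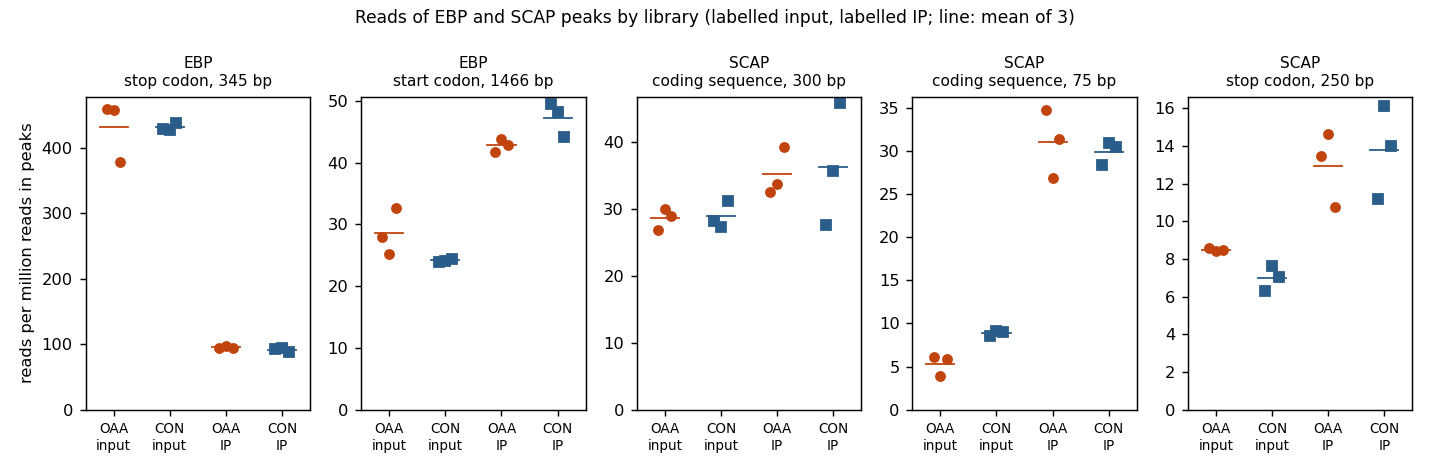
Reads per 1e+06 reads in peaks of each library for 2 peaks of EBP and 3 of SCAP, with OAA (circles) left of CON (squares) in the labelled-input pair and again in the labelled-IP pair, and a line at each mean of 3, every panel starting at 0. The EBP stop codon lies higher in the labelled-input libraries and its start codon lower, and the 75 bp SCAP peak has 3.92 to 6.06 in OAA labelled input and 8.51 to 9.16 in CON labelled input.

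A few peaks had almost no reads in the libraries labelled IP and are given as counts. The first 5′ UTR peak of NSDHL had 44 reads labelled input and 0 labelled IP in OAA cells, and 40 and 0 in CON cells. Against a floor of 3 reads over the group, these are at least 3.93-fold in OAA and at least 3.27-fold in CON cells. The folds and ratios given with these counts are linear, not log2. They stand relative to the typical peak, as the scaling of the fit sets it. The 5′ UTR peak of EBP had 43 and 0 reads in OAA cells, at least 3.84-fold, and 23 and 2 reads in CON cells, a linear ratio of 2.82 (exact 95% interval 0.697 to 24.7). The 5′ UTR peak of SC5D, shared with an unnamed gene, had 65 and 6 reads in OAA cells and 92 and 1 in CON cells, where the linear ratio was 22.6 (3.95 to 901). These intervals, and those of ACAT2 above, cover counting error only.

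Whether OAA shifted any of these ratios was tested as the difference between the treatments, and no peak or gene of the pathway passed. By edgeR with Benjamini-Hochberg adjustment 0 of 54 peaks were called, against a background of 0% of 24145 peaks, and 2 of 54 had an unadjusted p under 0.05, against 4.46% of all peaks. Per gene 0 of 21 were called (0% of 9097 genes), and 0 of 21 had an unadjusted p under 0.05, against 3.73% of all genes. DESeq2 called 0 of the 54 peaks and 0 of the 21 genes. The authors' deposited table gave a p-value under 0.05 to 1 of 57 peaks of these genes, or 1.75%, against 2.69% of 24931 peaks, and the smallest adjusted p-value was 1.00.

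The smallest p belonged to a 75 bp peak in the coding sequence of SCAP (chromosome 13, 30258636 to 30258710). In the libraries labelled input it held 130, 80 and 112 reads in OAA cells, against 186, 151 and 206 reads in CON cells. In the libraries labelled IP it held 160, 121 and 137 reads in OAA cells, against 114, 138 and 113 reads in CON cells. The ratio was lower in OAA cells by a log2 change of -0.82 ± 0.25 (SE, 95% interval -1.33 to -0.32), with an unadjusted p of 0.00240 and an adjusted p of 0.999 in edgeR. With any 1 replicate left out the change lay between -0.87 and -0.75. The authors' deposited table gives this peak a p-value of 0.0293, its only one under 0.05 among these genes. The other 2 SCAP peaks had ratios of -0.02 and -0.34 in OAA cells and -0.02 and -0.68 in CON cells, and for the gene as a whole the change was -0.09 ± 0.15.

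The other 3 peaks with small p-values were each from a different step of the chain. The EBP start codon peak had a change of 0.36 ± 0.17 with an unadjusted p of 0.0489 and an adjusted p of 0.999 in edgeR. In the libraries labelled input it had 28.0, 25.2 and 32.6 reads per 1e+06 in OAA cells, against 24.0, 24.1 and 24.4 in CON cells. In the libraries labelled IP it had 41.7, 43.9 and 42.9 in OAA cells, against 49.4, 48.2 and 44.2 in CON cells. Neither pair overlapped, and the 2 differences pointed in opposite directions. The peak was chosen for its small p from these same reads, so the separation adds no support. The share of all peaks with such a separation was not computed. The HMGCS1 coding sequence peak had a change of -0.25 ± 0.13. Labelled input had 52.9, 59.2 and 58.6 reads per 1e+06 in OAA cells, against 59.9, 63.5 and 67.5 in CON cells. Labelled IP had 123, 119.6 and 128 in OAA cells, against 129.9, 117 and 108 in CON cells, which overlap. The HSD17B7 start codon peak had a change of 1.47 ± 0.78 from few reads, 25, 44 and 27 labelled input and 5, 6 and 9 labelled IP in OAA cells, against 10, 16 and 28 labelled input and 11, 13 and 5 labelled IP in CON cells.

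For the genes most tied to SREBP2 activity the changes of the gene ratio were small beside their error. HMGCS1 had -0.19 ± 0.12, SQLE 0.07 ± 0.10, INSIG1 -0.00 ± 0.09, SREBF2 -0.03 ± 0.17 and FDFT1 -0.17 ± 0.12 (SE). DHCR7, with the smallest p after HSD17B7, HMGCS1 and FDFT1, had -0.21 ± 0.16. The 95% intervals of the 21 genes extended a median of 0.30 to each side.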

How the data were processed

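Per the labels, IPEC-J2 RNA was fragmented, divided into input and m6A antibody parts and sequenced, which made 4 groups of 3 libraries. Bowtie2 and HISAT2 were run, per the submitters' processing notes. What each was used for, its version and the genome build were not given in the sources used here. The authors deposited read counts per merged peak and library, with a log2 ratio per treatment and a p-value and adjusted p-value for the difference, per the file headers. A second deposited table gives FPKM per gene for 6 libraries. Every library column found its sample (0 unmatched). Peak starts, 0-based as deposited, were turned to 1-based.

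Counts were summed per gene over peaks under 1 gene and tested with edgeR 4.0.16 (quasi-likelihood, TMM, filterByExpr), FPKM as log2(FPKM + 1) with limma 3.58.1 for genes with at least 1 FPKM in at least 3 libraries, all in R 4.3.3, and DESeq2 1.42.0 was an alternative. Every fit covered the whole table, with Benjamini-Hochberg adjustment over all of it and a threshold of 0.05. Ratios used 1 fit over 12 libraries with a term per group. The tests were checked on simulated data. Depth was 16.5 to 23.0 M reads in peaks for libraries labelled input and 3.71 to 4.61 M for those labelled IP, where few reads limit low peaks.

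The members and lists were chosen with earlier results of these data known. All members are named. Values of every library are given for HMGCS1, SQLE, INSIG1, SREBF2, FDFT1 and the 4 smallest p per comparison of OAA with CON. Peaks named are each gene's largest, the 5 highest and 5 lowest ratios in CON cells with a mean of at least 10 labelled-input reads, and the 4 smallest p for the change. Same-numbered OAA and CON libraries did not deviate together (correlations over genes between -0.25 and -0.01), so the numbers were not taken as pairs. Labelled input and labelled IP of one number come from one RNA, per the labels' protocols, and their deviations correlated at -0.01 to 0.10. Alternatives were library-size scaling, DESeq2, no filter on low values, peaks up to 10000 bp, a pseudocount of 0.1, median centring, 6 libraries of a treatment only, a replicate block, each replicate left out, and, added after seeing the data, peaks under several genes counted for each.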

Additional observations from a re-analysis of the deposited data

How the results depend on the processing

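No gene or peak of the pathway was called in any comparison of OAA with CON cells under any alternative run. Over all features, the 0 calls became 1 for labelled input with DESeq2, 1 for FPKM without the filter and 1 for the change of peak ratio with DESeq2. With 1 replicate left out they were 0 to 1 for labelled input, the change of peak ratio and the change of gene ratio, and 0 to 44 for labelled IP, 44 being without OAA replicate 3. With the replicate block, which pairs labelled input and IP of one RNA, 1 peak was called for the change of peak ratio, and the block changed no other count by over 1.5 times. Library-size scaling took the pathway peaks called higher to 8 in OAA and 9 in CON cells, while the share of all peaks called higher fell to 27.9% in OAA and 26.99% in CON cells, and leaving out a replicate gave 11 to 14 in OAA and 12 to 16 in CON cells. Signs that turned belonged to values near 0 and to FDFT1. SREBF2 in labelled input was -0.0059 with peaks up to 10000 bp. The SQLE gene ratio in OAA cells was -0.0622 with library-size scaling. The FDFT1 gene ratio was -0.47 in OAA and -0.53 in CON cells, and its change 0.0562, with peaks under several genes, since 2 peaks shared with CTSB then enter. The INSIG1 change of gene ratio was 0.0038 with DESeq2, 0.0205 with library-size scaling, 0.0015 without the filter and 0.0072 with peaks under several genes. Leaving out 1 replicate turned further small values: in labelled IP, SQLE ran from -0.0624 to 0.0387, HMGCS1 from -0.042 to 0.0785 and SREBF2 from -0.006 to 0.18. In FPKM, HMGCS1 ran from -0.0567 to 0.0087, SQLE from -0.0033 to 0.12 and SREBF2 from -0.0752 to 0.055. The SQLE gene ratio ran from -0.0335 to 0.0894 in OAA and from -0.11 to 0.0024 in CON cells, and the changes ran from -0.13 to 0.088 for SREBF2 and from -0.0705 to 0.0836 for INSIG1. The cause was not tested. The DHCR7 start codon peak in CON cells passed with 6 libraries of the treatment (1.86), with DESeq2 (1.94) and without CON replicate 1 (3.44), and SQLE in CON cells with library-size scaling (-0.15). Low reads in the libraries labelled IP limit ACAT2, HSD17B7, LBR and the small 5′ UTR peaks.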

Other observations

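A list of other genes of cholesterol handling (uptake, the isoprenoid branch, turnover of the SREBP machinery, esterification, trafficking and efflux) also gave no call between OAA and CON cells. Of 39 found, 37 could be tested in FPKM, where limma with Benjamini-Hochberg adjustment called 0, 0 had an unadjusted p under 0.05 and 17 lay above 0 for OAA over CON, against 43% of all genes, with a median of -0.03. ABCA1, the cholesterol efflux pump, had the smallest p with a log2 difference of -0.20 (95% interval -0.41 to 0.02). In labelled input 0 of 29 were called by edgeR, 0 at an unadjusted p under 0.05, with 15 above 0, against 48.8% of all genes, and a median of 0.0043. In labelled IP edgeR called 0 of 27, 0 at an unadjusted p under 0.05, with 18 above 0, against 50.8% of all genes, and a median of 0.04.

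In the gene ratio, 8 of 29 were called higher and 13 lower in OAA cells, against 38.7% higher and 38% lower of all genes. The counts were the same in CON cells, against 38.9% and 37.8%. RNF145, a ubiquitin ligase known to act on SCAP, stood at 2.09 ± 0.08 in OAA and 2.14 ± 0.08 in CON cells (SE). On the low side, OSBPL9, a member of the oxysterol-binding protein family, stood at -1.84 in OAA and -1.92 in CON cells, LIPA, the lysosomal cholesteryl ester hydrolase, at -1.57 in OAA and -1.61 in CON cells, and VCP, an ATPase that extracts proteins from the endoplasmic reticulum, at -1.63 in OAA and -1.50 in CON cells.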
